A study of Mus musculus with 14 samples.

Results

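The genes described here are the cyclins, kinases and kinase inhibitors that govern passage through the G1 phase of the cell cycle: the D-type cyclins Ccnd1, Ccnd2 and Ccnd3, cyclin E1 (Ccne1), the kinases Cdk4 and Cdk6, and the inhibitors Cdkn1a, Cdkn1b, Cdkn2c and Cdkn2d. They were found as every array probe whose gene name in the scanner files is one of these 10 symbols, which gave 18 of 41174 probes. Of the 10 genes, 5 had more than 1 probe, and probes of a gene are numbered here from the brightest. All 18 probes were well above background on all 14 arrays, so all of them entered each comparison.

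The study hybridised RNA of 14 mouse samples from the blood-forming system to Agilent arrays, 1 labelled sample per array. The cells were myeloid progenitors (called GMP, for granulocyte-macrophage progenitors, in the sample titles), myeloid cells and hematopoietic stem cells. The Rheb1-/- samples came from Vav1-cre; Rheb1fl/fl mice, in which Cre recombinase under the Vav1 promoter deletes Rheb1 in the hematopoietic system, and the others from mice labelled wild type. The design text names the floxed line beside the wild type, and the labels do not say whether wild-type mice carried floxed alleles without Cre. Progenitors and myeloid cells had 3 samples per genotype and stem cells 1, and neither the age of the mice nor the surface markers used to isolate the cells are stated in the labels. The series asks what Rheb1, the GTPase that switches on the growth kinase complex mTORC1, does in the myeloid lineage.

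D-type cyclins rise when growth factors and nutrients are present, bind Cdk4 or Cdk6, and begin the phosphorylation of the retinoblastoma protein, which otherwise holds back E2F transcription factors. Cyclin E with Cdk2 completes that step and opens S phase. Inhibitors of the INK4 family (Cdkn2c, or p18, and Cdkn2d, or p19) bind only Cdk4 and Cdk6, whereas those of the CIP/KIP family (Cdkn1a, or p21, and Cdkn1b, or p27) bind cyclin complexes more widely, and myeloid cells generally leave the cycle as they mature.

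Levels are log2 of the background-subtracted spot signal minus the array's own 75th percentile, called log2 levels below, so a level of 0 equals that percentile. Because a probe's brightness depends on its sequence, levels are compared between samples and not between probes. The arrays lay on 4 slides. All wild-type myeloid cell arrays were on slide 1 and all Rheb1-/- ones on slide 4, so genotype and slide cannot be told apart in myeloid cells, nor in stem cells, whereas slide 3 mixed the genotypes, with wild-type arrays 2 and 3 and Rheb1-/- arrays 1 and 2 of the progenitors. Slide 2, with wild-type progenitor array 1 and the wild-type stem cell array, had a scan day of its own. No wild-type progenitor array lay on slide 1. The difference between progenitors and myeloid cells in wild type therefore cannot be told apart from slide either. The share of spots well above background ran from 58.5% to 67.6% across arrays, and replicates correlated across probes at 0.987 to 0.991. Rheb, the official symbol of Rheb1, differed between Rheb1-/- and wild type by -1.08 ± 0.22 (log2, SE) in progenitors (limma adjusted p = 0.104; -0.96 within slide 3), by -0.89 ± 0.22 in myeloid cells (0.0121) and by -1.19 in stem cells. Without Rheb1-/- progenitor array 1 the progenitor difference passed (limma adjusted p = 0.0449, the range over 24 alternatives being 0.0449 to 0.570). Residual signal was present in every Rheb1-/- sample, and the labels do not say whether the probe lies in the deleted part. Marker lists of the 3 labelled cell types were each highest in that type. The mean level of 9 granulocyte-macrophage progenitor markers was 6.37 to 6.54 in progenitors of either genotype against 3.91 to 5.14 in myeloid cells. That of 9 neutrophil markers was 7.60 to 8.17 in myeloid cells against 3.72 to 4.72 in progenitors. That of 10 stem cell markers was 0.30 and 0.68 on the stem cell arrays against -2.21 to -1.35 in progenitors. Markers of other cells were read too. The wild-type stem cell array was at 4.89 for the neutrophil list, above every progenitor array, and at 0.71 for the B cell list, the highest of all groups. It was at 2.40 for the monocyte and macrophage list, also above every progenitor array. The erythroid list was at 2.22 to 3.01 in wild-type myeloid cells against -1.21 to -0.34 in wild-type progenitors. No label links a sample to a mouse, and the p-values therefore cover just the variation among these samples, which may be technical. In RNA from a whole population, fewer cells of a type and less RNA per cell cannot be told apart.

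Across the myeloid lineage the genes split by role and by family member. In wild-type mice Ccnd2, Cdk4 and Cdk6 were 6.04-fold to 8.69-fold lower in myeloid cells than in progenitors on each of their 7 probes, whereas Ccnd3, Cdkn1b and Cdkn2d were 4.15-fold to 7.16-fold higher. The wild-type progenitors and myeloid cells shared no slide, so cell type and slide cannot be told apart in these values. In progenitors no probe of the set passed the test between genotypes, where 0.0958% of all probes did. In myeloid cells, Rheb1-/- samples had more Cdk6, Cdk4, Ccne1 and Cdkn1a than wild-type samples, and less Cdkn1b on 2 of its 3 probes. Ccnd1 was lower and Ccnd2 higher on 1 of its 3 probes. The calls of Ccnd1, of that Ccnd2 probe and of Cdkn1b probe 2 were each lost without certain single arrays.

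Of the 18 probes, 16 passed the test between the cell types in wild type (7 higher in myeloid cells and 9 lower; limma, Benjamini-Hochberg adjusted p under 0.05), where 76.8% of all 27144 probes tested passed, 38.1% higher and 38.7% lower. In Rheb1-/- cells 17 passed (9 higher and 8 lower), against 68.1% of all probes, 29.6% higher and 38.5% lower. Between genotypes, 0 of 18 passed in progenitors, where 0.0958% of all probes did (0.07% higher and 0.0258% lower), and 0 of 18 had an unadjusted p under 0.05, against 3055 of all 27144. In myeloid cells 11 of 18 passed (8 higher and 3 lower in Rheb1-/-), against 31.6% of all probes, of which 15.5% were higher and 16.1% lower. The groups did not overlap on 17 and 17 of the 18 probes between cell types in wild type and Rheb1-/-, against 79% and 73% of all probes, and between genotypes on 3 in progenitors and 14 in myeloid cells, against 19.1% and 47.3%. The median log2 difference between genotypes in myeloid cells was 0.41 over the 18 probes and -0.07 over all probes, and in progenitors 0.06 and 0.02. With quantile normalization or the deposited values the share of higher calls among all called probes in myeloid cells was 59.3% or 59.4% in place of 49.0%, and with normexp background correction that in progenitors was 33.3% in place of 73.1%.

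**Figure D1:**
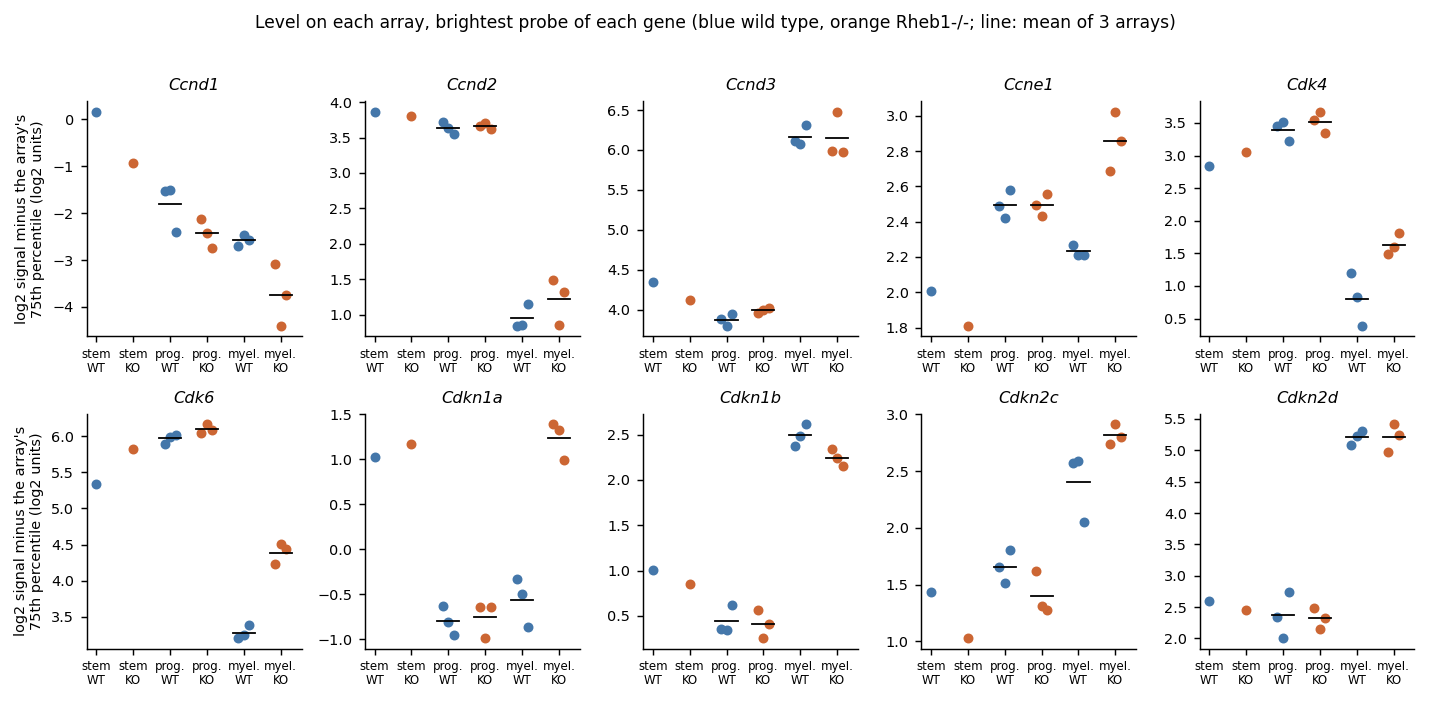
Log2 level (y axis, log2 units) of the brightest probe of each of the 10 genes on every array, by cell type and genotype (x axis), with wild type in blue, Rheb1-/- in orange and a line at the mean of 3 arrays. Cdkn1a lies between 0.99 and 1.39 in Rheb1-/- myeloid cells and between -0.87 and -0.33 in wild-type ones, and the y axes differ between panels.

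Ccnd1 encodes cyclin D1, the D-type cyclin most directly tied to growth factor signals in many cell types. Its probe lies at chr7:152116173-152116232 of mm9, on the minus strand. The log2 levels were -1.52, -1.51 and -2.40 in wild-type progenitors and -2.11, -2.43 and -2.74 in Rheb1-/- progenitors. In myeloid cells they were -2.70, -2.47 and -2.57 in wild type and -3.08, -4.40 and -3.74 in Rheb1-/-, and the stem cell arrays read 0.16 in wild type and -0.94 in Rheb1-/-. The stem cell arrays were thus the highest of all 14, every Rheb1-/- myeloid cell array lay below every wild-type one, and the progenitors of both genotypes overlapped. The level fell by 1.16 ± 0.33 (SE), or 2.23-fold, in Rheb1-/- myeloid cells (limma adjusted p = 0.0242). This call was lost without wild-type myeloid cell array 2 (limma adjusted p = 0.0687) or 3 (0.0620), and without Rheb1-/- myeloid cell array 2 (0.0790) or 3 (0.0616), the range over 22 alternatives being 0.00456 to 0.0790, and normexp correction gave a difference of -0.61. The progenitors differed by -0.62 ± 0.33 (limma adjusted p = 0.532; -0.32 within slide 3), and the 2 genotype differences did not differ past the threshold (-0.54, 95% interval -1.59 to 0.51, limma adjusted p = 0.486).

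From progenitors to myeloid cells Ccnd1 differed by -0.77 ± 0.33 in wild type, which did not pass (limma adjusted p = 0.0552) but did under 11 of 22 alternatives (0.0142 to 0.162). Those included leaving out wild-type progenitor array 3 (-1.07, limma adjusted p = 0.0142) and Rheb1-/- myeloid cell array 1 (0.0277) or 2 (0.0276), and under normexp the difference was -0.49. In Rheb1-/- cells it fell by 1.31 ± 0.33 (limma adjusted p = 0.00518). Within slide 4, where Rheb1-/- progenitor array 3 lay beside the myeloid cell arrays of that genotype, that difference was -0.997 and did not pass (limma adjusted p = 0.199), and normexp gave -0.59. The probe was printed on 10 spots per array, and the SD over its spots had a median of 0.09, less than the SD of 0.66 over the Rheb1-/- myeloid cell arrays.

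Ccnd2 encodes cyclin D2, the D-type cyclin with a broad part in blood-forming cells. No annotation of this build was used here, so exon and UTR are not stated for any probe. Probes 2 and 3 are shown because both gave the cell-type difference from separate stretches of the gene, and are printed in lower case, with no base singled out.
Ccnd2 probe 2, chr6:127089187-127089246 (mm9, minus strand): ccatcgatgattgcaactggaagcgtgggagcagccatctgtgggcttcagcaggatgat
Ccnd2 probe 3, chr6:127098696-127098755 (mm9, minus strand): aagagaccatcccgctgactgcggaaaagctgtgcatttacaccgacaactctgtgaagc

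On probe 1 of Ccnd2 the log2 levels were 3.73, 3.64 and 3.56 in wild-type progenitors and 3.66, 3.71 and 3.62 in Rheb1-/- ones, and 3.86 and 3.80 on the wild-type and Rheb1-/- stem cell arrays. In myeloid cells they were 0.84, 0.85 and 1.15 in wild type and 1.49, 0.86 and 1.31 in Rheb1-/-. Stem cells and progenitors lay between 3.56 and 3.86 and every myeloid cell array lay far below them. From wild-type progenitors to myeloid cells the 3 probes fell by 2.69 ± 0.15, 2.80 ± 0.12 and 2.80 ± 0.16 (limma adjusted p = 1.04e-07, 2.24e-08 and 1.09e-07). In Rheb1-/- cells they fell by 2.44, 2.58 and 2.61, and by 2.40 to 2.49 within slide 4. Between genotypes in myeloid cells, only probe 2 passed, higher by 0.41 ± 0.12 in Rheb1-/- (limma adjusted p = 0.0295), while probe 1 differed by 0.27 ± 0.15 (0.203) and probe 3 by 0.38 ± 0.16 (0.0966). The call of probe 2 held in 14 of 21 alternatives (limma adjusted p 0.00930 to 0.0933). It was lost without wild-type myeloid cell array 1 (0.0507), 2 (0.0933) or 3 (0.0535), without Rheb1-/- myeloid cell array 1 (0.0924) or 3 (0.0869), with no filter on dim probes (0.0619) and in a fit of the 6 myeloid cell arrays alone (0.0756). Without Rheb1-/- myeloid cell array 2, by contrast, probe 1 (0.0246) and probe 3 (0.0263) passed too.

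Ccnd3 encodes cyclin D3, and its probe lies at chr17:47736267-47736326 of mm9, on the plus strand. The log2 levels were 3.88, 3.80 and 3.95 in wild-type progenitors, 3.95, 3.99 and 4.02 in Rheb1-/- progenitors, and 4.34 and 4.12 on the wild-type and Rheb1-/- stem cell arrays. They were 6.11, 6.07 and 6.31 in wild-type myeloid cells and 5.99, 6.48 and 5.98 in Rheb1-/- ones. All 6 myeloid cell arrays lay above the other 8, where for Ccnd2 they lay below them, and the stem cell arrays lay above the progenitors. The rise from progenitors was 2.29 ± 0.13 (4.89-fold) in wild type (limma adjusted p = 1.19e-07) and 2.16 ± 0.13 in Rheb1-/- (3.54e-07). Between genotypes it differed by 0.11 ± 0.13 in progenitors (95% interval -0.18 to 0.41) and by -0.02 ± 0.13 in myeloid cells (-0.32 to 0.28), neither past the threshold (limma adjusted p = 0.824 and 0.925).

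Cyclin E1, which acts with Cdk2 late in G1, was measured by 2 probes in the same file coordinates but of unlike sequence, their longest shared run being 6 bases. On probe 1 the log2 levels were 2.49, 2.42 and 2.58 in wild-type progenitors and 2.50, 2.43 and 2.56 in Rheb1-/- ones. In myeloid cells they were 2.27, 2.21 and 2.21 in wild type and 2.69, 3.02 and 2.86 in Rheb1-/-, with 2.01 and 1.81 on the wild-type and Rheb1-/- stem cell arrays. The Rheb1-/- myeloid cell arrays were the 3 highest of the 14, and the stem cell arrays the lowest. Probe 1 rose by 0.62 ± 0.10 (1.54-fold) in Rheb1-/- myeloid cells and probe 2 by 0.75 ± 0.16 (1.69-fold; limma adjusted p = 0.00137 and 0.00696), and both kept passing in every alternative run (22 and 21, up to 0.0390), although normexp gave 0.44 for probe 2. In progenitors probe 1 differed by 0.00 ± 0.10 (95% interval -0.21 to 0.21).

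The estimated cell-type difference of Ccne1 had opposite signs in the 2 genotypes on both probes, though in Rheb1-/- only probe 1 passed. In wild type, Ccne1 was lower in myeloid cells than in progenitors, by 0.27 ± 0.10 on probe 1 and 0.45 ± 0.16 on probe 2 (limma adjusted p = 0.0265 and 0.0266). Probe 1 lost that call without wild-type myeloid cell array 2 (0.0666) or 3 (0.0597), without wild-type progenitor array 1 (0.0545) or 3 (0.0866), and with no filter (0.0560), within a range of 0.00310 to 0.0866. Probe 2 lost it without wild-type myeloid cell array 3 (-0.30, 0.105), without wild-type progenitor array 3 (0.0819) and under normexp (-0.21, 0.176), within a range of 0.00970 to 0.176. In Rheb1-/- cells probe 1 was higher in myeloid cells by 0.36 ± 0.10 (limma adjusted p = 0.00655; 0.30 within slide 4, which did not pass at 0.267), and probe 2 differed by 0.19 ± 0.16 (0.318).

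The kinases that the D-type cyclins activate, Cdk4 and Cdk6, fell together from progenitors to myeloid cells. The probe of Cdk4 and probe 2 of Cdk6 are shown because they carry the kinase measurements. The Cdk6 probe spans 42285 bases of the genome, so it crosses at least 1 intron and reads spliced RNA.
Cdk4 probe, chr10:126501967-126502026 (mm9, plus strand): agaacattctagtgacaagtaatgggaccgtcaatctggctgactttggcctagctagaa
Cdk6 probe 2, chr5:3473220-3515504 (mm9, plus strand): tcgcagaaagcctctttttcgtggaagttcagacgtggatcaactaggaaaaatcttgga

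Cdk4 read 3.45, 3.52 and 3.23 on the log2 level scale in wild-type progenitors, 3.55, 3.67 and 3.34 in Rheb1-/- progenitors, and 2.84 and 3.05 on the wild-type and Rheb1-/- stem cell arrays. Wild-type myeloid cells read 1.19, 0.83 and 0.39, and Rheb1-/- myeloid cells 1.49, 1.60 and 1.81. The genotypes overlapped in progenitors and did not in myeloid cells, where all Rheb1-/- arrays were higher. The difference between genotypes in myeloid cells was 0.83 ± 0.19 (1.78-fold; limma adjusted p = 0.00845, up to 0.0372 over 22 alternatives), and in progenitors 0.12 ± 0.19 (0.877). From progenitors to myeloid cells Cdk4 fell by 2.59 ± 0.19 (6.04-fold) in wild type and by 1.89 ± 0.19 (3.69-fold) in Rheb1-/- (limma adjusted p = 5.17e-07 and 8.46e-06), and by 1.71 within slide 4. The difference between the 2 genotype effects, 0.71 ± 0.26 (95% interval 0.12 to 1.30), did not pass (limma adjusted p = 0.114), and passed in 1 of 21 alternatives, without wild-type myeloid cell array 1 (0.0370).

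Cdk6 was measured by 3 probes whose longest shared run was 6 bases. On probe 1, at chr5:3529287-3529346 of mm9, the log2 levels were 5.89, 5.99 and 6.02 in wild-type progenitors and 6.04, 6.17 and 6.08 in Rheb1-/- ones. They were 3.21, 3.25 and 3.39 in wild-type myeloid cells and 4.23, 4.51 and 4.43 in Rheb1-/- ones, and 5.34 and 5.82 on the wild-type and Rheb1-/- stem cell arrays. On this probe the 6 groups stood in the order progenitors, stem cells, Rheb1-/- myeloid cells and wild-type myeloid cells, with no overlap between neighbours. On probe 2 the Rheb1-/- stem cell array, at 1.61, lay above the progenitor means of 1.24 in Rheb1-/- and 1.04 in wild type. In progenitors the genotypes overlapped on probe 2 and not on probe 3.

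All 3 Cdk6 probes were higher in Rheb1-/- myeloid cells, by 1.11 ± 0.09 (2.15-fold), 1.16 ± 0.18 (2.23-fold) and 1.37 ± 0.18 (2.58-fold; limma adjusted p = 0.000221, 0.00151 and 0.000753). Each passed in every alternative run, though normexp gave 0.66 for probe 3. In progenitors the probes differed by 0.13, 0.20 and 0.17, none past the threshold (limma adjusted p = 0.677 to 0.789), with 0.10, 0.22 and 0.18 within slide 3. The differences from progenitors to myeloid cells were -2.69, -2.65 and -3.12 in wild type and -1.71, -1.69 and -1.93 in Rheb1-/- (limma adjusted p at most 3.35e-07 and 1.36e-05). Within slide 4 the Rheb1-/- values were -1.70, -1.69 and -1.91. Normexp gave -1.99 for probe 3 in wild type.

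**Figure D2:**
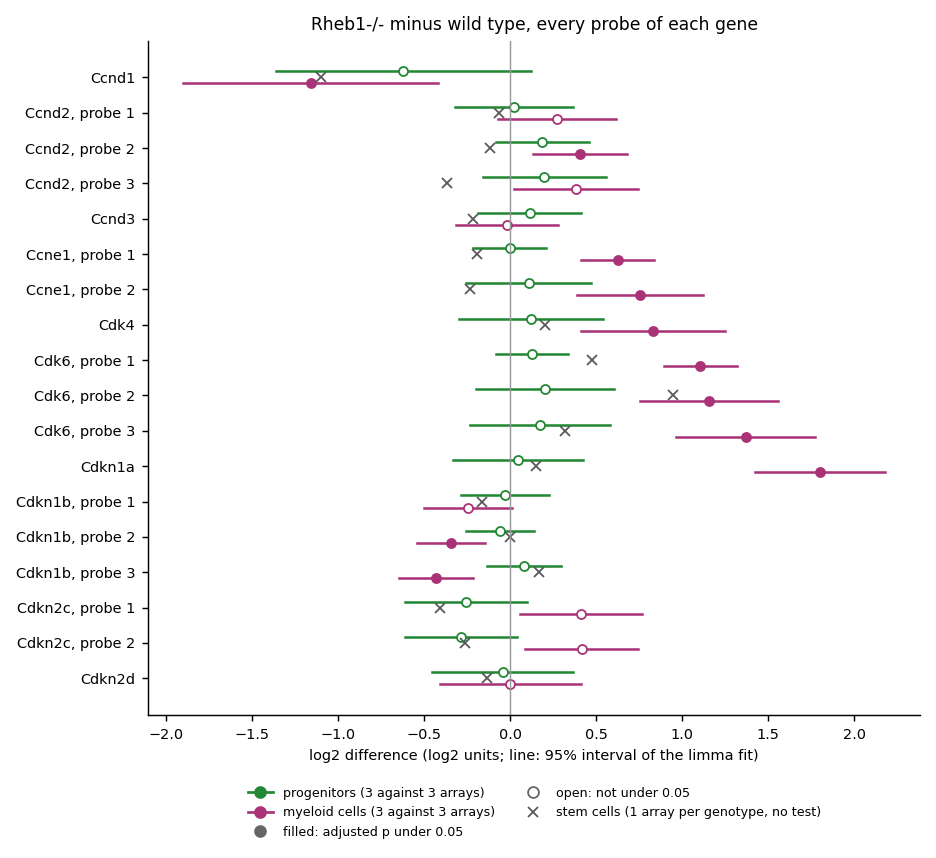
Log2 difference between Rheb1-/- and wild type (x axis, log2 units) for each of the 18 probes (y axis), in progenitors (green) and myeloid cells (purple) with the 95% interval of the limma fit, filled where the adjusted p was under 0.05, and in stem cells as a cross without a test. No progenitor value is filled, and the 3 Cdk6 probes and Cdkn1a lie furthest to the right in myeloid cells, at 1.11 to 1.80.

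Cdkn1a encodes p21, an inhibitor of cyclin-dependent kinases best known as a target of p53. Its probe lies at chr17:29237377-29237436 of mm9, on the plus strand. The log2 levels were -0.63, -0.81 and -0.95 in wild-type progenitors, -0.64, -0.99 and -0.64 in Rheb1-/- progenitors, and -0.33, -0.50 and -0.87 in wild-type myeloid cells. In Rheb1-/- myeloid cells they were 1.39, 1.33 and 0.99, and the stem cell arrays read 1.02 in wild type and 1.18 in Rheb1-/-. The arrays formed a low set, made of both progenitor groups and the wild-type myeloid cells, which overlapped, and a high set of stem cells and Rheb1-/- myeloid cells. Cdkn1a rose by 1.80 ± 0.17, or 3.49-fold, in Rheb1-/- myeloid cells (limma adjusted p = 0.000246, up to 0.00618 over 22 alternatives), the largest genotype difference among the 18 probes. In progenitors it differed by 0.04 ± 0.17 (95% interval -0.33 to 0.42, limma adjusted p = 0.958). From progenitors to myeloid cells it differed by 0.23 ± 0.17 in wild type (limma adjusted p = 0.233) and rose by 1.99 ± 0.17 in Rheb1-/- (2.87e-06; 1.87 within slide 4). The SD over its 10 spots per array had a median of 0.06.

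Cdkn1b encodes p27, the inhibitor whose level commonly rises as cells leave the cycle. Probe 2, printed on 10 spots per array, is shown because it is 1 of the 2 probes on which the genotype difference passed.
Cdkn1b probe 2, chr6:134871103-134871161 (mm9, plus strand): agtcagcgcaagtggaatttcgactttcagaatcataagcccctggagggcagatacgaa

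On probe 1 of Cdkn1b the log2 levels were 0.35, 0.35 and 0.62 in wild-type progenitors and 0.56, 0.26 and 0.41 in Rheb1-/- ones, with 1.01 and 0.85 on the wild-type and Rheb1-/- stem cell arrays. They were 2.37, 2.49 and 2.61 in wild-type myeloid cells and 2.35, 2.24 and 2.15 in Rheb1-/- ones. All 6 myeloid cell arrays lay above the other 8, and on each of the 3 probes every Rheb1-/- myeloid cell array lay below every wild-type one. The rise from progenitors to myeloid cells was 2.05 to 2.22 over the probes in wild type and 1.71 to 1.84 in Rheb1-/- (limma adjusted p at most 9.32e-08 and 3.82e-07), and 1.62 to 1.84 within slide 4. Between genotypes in myeloid cells, probe 2 fell by 0.34 ± 0.09 (1.27-fold) and probe 3 by 0.43 ± 0.10 (1.35-fold; limma adjusted p = 0.0156 and 0.00816), whereas probe 1 differed by -0.25 ± 0.12 and did not pass (0.131). Probe 3 passed in all 21 alternatives. Probe 2 passed in 17 of 21 (limma adjusted p 0.00386 to 0.0716) and not without wild-type myeloid cell array 3 (0.0527), without Rheb1-/- myeloid cell array 3 (0.0578), under normexp (0.0519) or in a fit of the myeloid cell arrays alone (0.0716). In progenitors the 3 probes differed by -0.03, -0.06 and 0.08, and the last turned to -0.02 within slide 3.

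Of the INK4 inhibitors, Cdkn2c (p18) was measured by 2 probes that share 40 bases and so are not independent. On probe 1 the log2 levels were 1.66, 1.51 and 1.81 in wild-type progenitors and 1.62, 1.31 and 1.28 in Rheb1-/- ones, and 1.44 and 1.03 on the wild-type and Rheb1-/- stem cell arrays. They were 2.57, 2.59 and 2.05 in wild-type myeloid cells and 2.74, 2.91 and 2.80 in Rheb1-/- ones. Myeloid cells were the highest groups in both genotypes, the Rheb1-/- ones above the wild-type ones without overlap. The rise from progenitors was 0.75 ± 0.16 (1.68-fold) in wild type and 1.41 ± 0.16 (2.67-fold) in Rheb1-/- (limma adjusted p = 0.00146 and 2.01e-05; 1.54 within slide 4). Between genotypes in myeloid cells the probes differed by 0.41 ± 0.16 and 0.42 ± 0.15 and did not pass (limma adjusted p = 0.0725 and 0.0538), though they passed in 3 of 22 and 7 of 21 alternatives. Without wild-type myeloid cell array 3 the differences were 0.24 and 0.26. In progenitors they were -0.26 ± 0.16 and -0.29 ± 0.15 (0.597 and 0.507).

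The probe of Cdkn2d (p19), an inhibitor found in many differentiated cells, lies at chr9:21092980-21093039 of mm9, on the minus strand. Its log2 levels were 2.35, 2.01 and 2.74 in wild-type progenitors, 2.49, 2.15 and 2.33 in Rheb1-/- ones, and 2.60 and 2.46 on the wild-type and Rheb1-/- stem cell arrays. Myeloid cells read 5.09, 5.23 and 5.31 in wild type and 4.97, 5.42 and 5.24 in Rheb1-/-. This was the largest rise among the 18 probes, 2.84 ± 0.18 (7.16-fold) in wild type and 2.88 ± 0.18 (7.39-fold) in Rheb1-/- (limma adjusted p = 2.36e-07 and 4.15e-07; 2.88 within slide 4). The genotypes overlapped in both cell types, with differences of -0.04 ± 0.18 in progenitors (95% interval -0.45 to 0.37) and 0.00 ± 0.18 in myeloid cells (-0.41 to 0.41; limma adjusted p = 0.962 and 0.995).

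**Figure D3:**
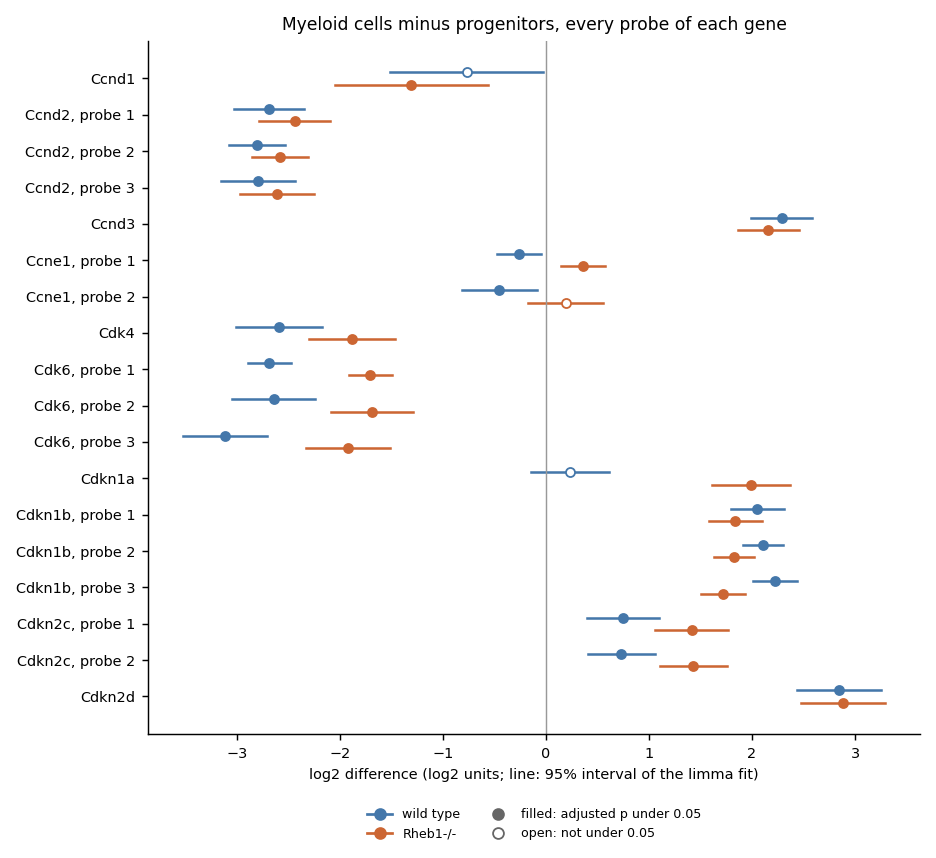
Log2 difference between myeloid cells and progenitors (x axis, log2 units) for each of the 18 probes (y axis), in wild type (blue) and Rheb1-/- (orange), with the 95% interval of the limma fit and filled points where the adjusted p was under 0.05. Ccnd2, Cdk4 and Cdk6 lie to the left of 0 and Ccnd3, Cdkn1b, Cdkn2c and Cdkn2d to the right in both genotypes, and Ccne1 probe 1 lies at -0.27 in wild type and 0.36 in Rheb1-/-. In wild type the cell types lay on separate slides.

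Whether loss of Rheb1 acted differently in the 2 cell types was tested as the genotype difference in myeloid cells minus that in progenitors. Of the 18 probes 6 passed, 5 of them higher and 1 lower (limma, adjusted p under 0.05), where 9.38% of all probes passed (4.63% higher and 4.75% lower). The share of higher calls among all probes was 49.3%, and 64.1% or 64.2% with quantile normalization or the deposited values. The 3 probes of Cdk6 gave 0.98 ± 0.13, 0.95 ± 0.25 and 1.19 ± 0.26 (limma adjusted p = 0.00834, 0.0444 and 0.0235), Cdkn1a gave 1.76 ± 0.24 (0.00834), Ccne1 probe 1 gave 0.63 ± 0.13 (0.0235) and Cdkn1b probe 3 gave -0.51 ± 0.14 (0.0446). The remaining probes of 2 of these genes did not pass, Cdkn1b probes 1 and 2 at -0.22 and -0.28 (limma adjusted p = 0.415 and 0.170) and Ccne1 probe 2 at 0.65 (0.102). Cdk6 probe 1 and Cdkn1a passed in all 21 alternatives. Because slide and genotype coincide in myeloid cells, this difference carries the same limit.

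The other 4 calls were lost when certain single arrays were left out and under some processing choices. With no filter on dim probes none of the 4 passed (limma adjusted p = 0.0863 for Cdk6 probe 2, 0.0517 for Cdk6 probe 3, 0.0572 for Ccne1 probe 1 and 0.0965 for Cdkn1b probe 3). Under normexp Cdk6 probe 2 (0.0687) and Cdkn1b probe 3 (0.0841) did not pass, nor, with trend and robust fitting, did Cdkn1b probe 3 (0.0627). Cdk6 probe 2 kept its call without 3 of the 12 arrays, the 9 whose omission ended it being all but wild-type myeloid cell array 3, Rheb1-/- myeloid cell array 1 and Rheb1-/- progenitor array 2 (limma adjusted p 0.0673 to 0.0940; over all alternatives 0.0248 to 0.0940). Cdk6 probe 3 lost it without Rheb1-/- myeloid cell array 3 (0.0536) or Rheb1-/- progenitor array 1 (0.0564) and under normexp (0.49, limma adjusted p = 0.135), within 0.0133 to 0.135. Ccne1 probe 1 lost it without Rheb1-/- myeloid cell array 3 (0.0509), wild-type myeloid cell array 2 (0.0514) or Rheb1-/- progenitor array 1 (0.0539) or 2 (0.0548), within 0.00997 to 0.0572. Cdkn1b probe 3 lost it in 11 of the 12 omissions, all but wild-type myeloid cell array 1 (0.0534 to 0.0951; over all alternatives 0.0307 to 0.0965).

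**Figure D4:**
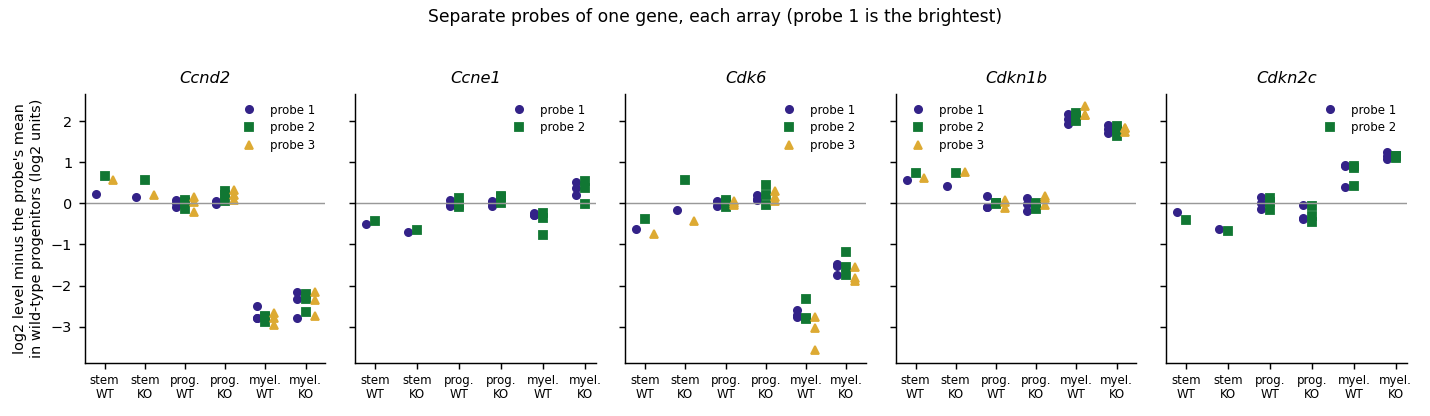
Log2 level on each array minus that probe's mean in wild-type progenitors (y axis, log2 units) for the genes with several probes, by cell type and genotype (x axis), with a marker shape and colour per probe. In wild-type myeloid cells the means of Cdk6 probes 1 to 3 lie at -2.69, -2.65 and -3.12, and between the stem cell arrays the same probes differ by 0.48, 0.94 and 0.32.

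Stem cells had 1 array per genotype, so their differences have no replicate check. Of the 18 probes 1, Ccnd1, was at least 2-fold apart (-1.10 in Rheb1-/-), where 10.4% of the 25971 probes well above background on both arrays were and 5.69% were lower. Under normexp Ccnd1 was at -0.98, which left 0 of 18, and with quantile normalization or the deposited values Cdk6 probe 2 was at 1.05, which made 2. The Cdk6 probes were higher in Rheb1-/- by 0.48, 0.94 and 0.32, and by 0.64 for probe 1 with quantile normalization or the deposited values, while Cdkn1a read 0.15 higher and Ccne1 0.19 and 0.23 lower. The 2 arrays also differed in markers of other cells: the mean level of 9 neutrophil markers was 4.89 in wild type and 3.65 in Rheb1-/-, that of 9 erythroid markers 1.24 and -0.75, and that of the B cell list 0.71 and -0.995. The monocyte and macrophage list was at 2.40 in wild type and 0.70 in Rheb1-/-, and the stroma and endothelium list at -3.14 and -4.37. The granulocyte-macrophage progenitor list went the other way, at 4.59 and 5.12. The part of these markers in the stem cell differences was not tested.

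Among 31 other genes of the G1 machinery and its regulators, all on the array, 30 entered the fit. In Rheb1-/- myeloid cells 14 were higher and 2 lower (limma, adjusted p under 0.05, median difference 0.26), where 15.5% and 16.1% of all probes were. In progenitors 0 of 30 passed (median 0.02), where 0.0958% of all probes did. The 3 with the smallest p were Myc, a transcription factor that drives growth and D-cyclin and kinase expression, at 1.95 ± 0.17 (limma adjusted p = 0.000221), Cables1, which encodes a scaffold of cyclin-dependent kinases, at 1.21 ± 0.11 (0.000223), and Ccndbp1, which encodes a cyclin D binding protein, at -0.77 ± 0.10 (0.000753). The same 3 had the smallest p in the difference between cell types of the genotype effect, where 5 genes were higher and 1 lower, against 4.63% and 4.75% of all probes. From wild-type progenitors to myeloid cells 10 of the 30 rose and 14 fell, where 38.1% and 38.7% of all probes did, with differences of -3.62 ± 0.17 for Myc, -2.56 ± 0.11 for Cables1 and 1.89 ± 0.10 for Ccndbp1. In Rheb1-/- cells 12 rose and 12 fell, against 29.6% and 38.5% of all probes. Both counts of rises include Cdkn2b, an INK4 inhibitor well above background on 0 of 3 arrays of each progenitor group and on 3 of 3 of each myeloid cell group, which entered the fit only through the groups where it is high. The genes with the smallest p were Rb1, the retinoblastoma gene (1.46 ± 0.09), Cables1 (-1.51 ± 0.11) and E2f2, which encodes an E2F factor (3.17 ± 0.23; limma adjusted p at most 9.21e-07). Trp53, which encodes p53, differed by -0.23 ± 0.14 between genotypes in myeloid cells and Mdm2, a p53 target, by -0.33 ± 0.13, and neither passed (limma adjusted p = 0.225 and 0.0701); both were singled out beside Cdkn1a after their values were seen.

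Genes of S phase and part of those of mitosis also differed between genotypes in myeloid cells. Pcna and Mcm2 to Mcm7 all passed, higher in Rheb1-/-. Top2a, Ccnb2, Cdk1, Plk1 and Cdc20 were higher too but did not pass (limma adjusted p = 0.0577 to 0.0935). Of 18 proliferation genes 13 were higher and 0 lower in Rheb1-/- myeloid cells (limma, adjusted p under 0.05, median 0.62). Of all probes 15.5% were higher and 16.1% lower. The mean level of the 18 genes was 3.22 to 3.50 on the wild-type and 3.79 to 4.10 on the Rheb1-/- myeloid cell arrays. In progenitors it was 4.15 to 4.30. Marker lists differed too. Of 9 granulocyte-macrophage progenitor markers 7 were higher (mean level 4.96 to 5.14 against 3.91 to 4.33), and of 9 erythroid markers 7 were lower (-0.22 to 1.53 against 2.22 to 3.01). Of 7 B cell markers in the fit 5 were lower. The mean level of all 8 B cell markers on the array was -2.62 to -2.04 against -1.55 to -0.47. Of the platelet list 6 of 9, of the T and NK cell list 4 of 7 and of the monocyte and macrophage list 4 of 9 were lower. The neutrophil list had 2 of 9 lower, near the 16.1% of all probes that were lower. From the T and NK cell list 1 marker was higher. Nkg7 stands in both the progenitor and the T and NK cell lists. The part of these cell type differences in the changes of Cdk4, Cdk6, Ccne1, Cdkn1a, Ccnd1 and Cdkn1b was not tested. In progenitors 1 marker of all lists, from the stroma and endothelium list, passed between genotypes, where 0.0958% of all probes did. The mean level of the platelet list did not overlap between genotypes there, at -0.11 to 0.57 in wild type and -1.73 to -0.84 in Rheb1-/-, with 0 of its 9 genes called and a median difference of -1.64.

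**Figure D5:**
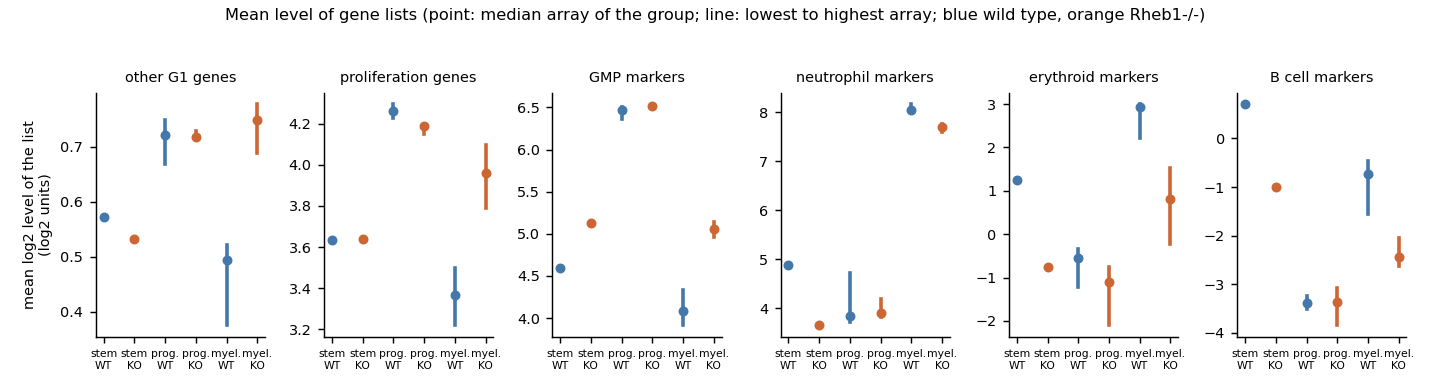
Mean log2 level (y axis, log2 units) of 6 gene lists by cell type and genotype (x axis), with wild type in blue and Rheb1-/- in orange, a point at the median array of a group and a line from its lowest to its highest array. In myeloid cells the Rheb1-/- arrays lie above the wild-type ones for the proliferation genes (3.79 to 4.10 against 3.22 to 3.50) and the progenitor markers, and below them for the neutrophil, erythroid and B cell markers, and the y axes differ between panels.

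Each gene was also set beside 18452 probes well above background on all 14 arrays, and likeness was measured as the root mean square difference of the centred log2 levels over the 14 arrays. The pattern closest to that of Cdk4 was that of Nop14 (0.09), then Impdh2 (0.12), and closest to Cdk6 were Nop56 (0.12) and Cmss1 (0.13), against an SD over the arrays of 1.15 for both kinases. Ccnd2 was closest to Ptprs (0.16) and Zbtb12 (0.19), Ccnd3 to Tmem120a (0.13) and Pdlim2 (0.15), and Ccne1, whose own SD was 0.32, to Ndc80 (0.10) and H2afx (0.10). Among the inhibitors, Cdkn1b was closest to Rab33b (0.10) and Arhgap30 (0.12), Cdkn2c to Gpsm2 (0.14) and Pros1 (0.18), and Cdkn2d to Slc25a24 (0.09) and Gpsm3 (0.18). For Ccnd1, with an SD of 1.13, the nearest were Abcb4 (0.31) and Slc7a8 (0.32), and for Cdkn1a, with an SD of 0.96, Naprt1 (0.35) and Csrnp1 (0.38). The arrays share cell type and slide, so these values describe a pattern over 6 groups rather than over 14 independent samples.

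Promoter sequences from RefSeq (GRCm38.p6) were at hand for 8 of the 10 genes, as 11 windows of the 250 bases before a transcription start. The windows were searched on both strands for the E-box CACGTG that Myc and its relatives bind, the E2F motif TTTNGCGC, the forkhead motif TGTTTAC and the p53 half-site. The E-box occurred 4 times before Cdk4, at -172, -118, -98 and -11 from the start (the first base of each match, with -1 the last base of the window), and once before Cdk6, at -220. Of 32851 promoters, 6.02% held at least 1 E-box and 0.0213% at least 4. The p53 half-site, held by 7.13% of promoters, occurred at -73 and -51 in 1 of the 2 Cdkn1a windows and at -102 before Cdkn2d, the forkhead motif (3.17%) at -243 in 1 of the 2 Ccnd3 windows, and the E2F motif (1.13%) in none of the 11. No match overlapped a match of another motif in these windows. The windows of Cdk4 and Cdkn1a are shown because they held the most matches, which stand in capitals. A match describes letters and not a bound site.
Cdk4 promoter, chr10:127063285-127063534 (GRCm38.p6, plus strand): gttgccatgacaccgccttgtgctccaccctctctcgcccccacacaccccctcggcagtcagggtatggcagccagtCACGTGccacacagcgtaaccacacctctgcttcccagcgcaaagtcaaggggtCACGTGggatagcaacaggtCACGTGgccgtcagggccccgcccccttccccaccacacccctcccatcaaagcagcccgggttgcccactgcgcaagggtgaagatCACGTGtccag
Cdkn1a promoter with p53 half-sites, chr17:29090729-29090978 (GRCm38.p6, plus strand): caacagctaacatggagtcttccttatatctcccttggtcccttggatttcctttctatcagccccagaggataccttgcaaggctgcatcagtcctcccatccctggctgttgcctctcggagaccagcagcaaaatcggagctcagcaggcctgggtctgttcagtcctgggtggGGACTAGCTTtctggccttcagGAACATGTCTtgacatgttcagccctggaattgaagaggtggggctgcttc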

How the data were processed

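The deposited scanner files hold, per the file headers, Agilent Feature Extraction 10.7.3.1 spot values of single-colour (Cy3) mouse 4x44K arrays, 45018 spots each, with a background-subtracted signal as a linear intensity. The submitters' processing notes name version 9.1. The deposited value table holds log2 values that, set against the scanner signals, behaved as quantile-normalized without centring on genes (correlation per array 0.998 to 1.00, sorted columns differing by at most 0.00234); it served as an alternative. Probe coordinates are on mm9, per the file headers' annotation columns.

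From the intensities, 1639 control spots and 79 to 195 outlier spots per array were left out, spots of a probe were averaged on the log2 scale, and each array's 75th percentile was subtracted. Testing was limited to the 27144 probes that every array of some replicated group (of 4) read well above background. Group means over 12 arrays were fitted with limma 3.58.1 in R 4.3.3 (lmFit and eBayes, two-sided, Benjamini-Hochberg over all probes), and an adjusted p under 0.05 was a call. Stem cells, with 1 array per genotype, had no test. Folds are 2 to the power of the log2 difference. On simulated data 57% (progenitors) and 65% (myeloid cells) of 100 probes changed by 1 log2 unit were called, and 88% of those changed by 2 in each. The simulation left 26944 probes unchanged and had no slide effect. In the data 8580 probes were called between genotypes in myeloid cells, so the simulated shares need not hold there. Array number limits the precision.

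The genes and lists were chosen with earlier results of these data known. Every probe of the 10 genes is described, and from the other G1 genes the 3 with the smallest p per comparison are named. Alternatives were the deposited values, quantile normalization, normexp correction (offset 50), no filter, only probes detected on all 12 arrays, 1 probe per gene, slide as a block, a replicate block, trend and robust fitting, fits of single comparisons, and leaving out each array.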

Additional observations from a re-analysis of the deposited data

Results flagged for a closer look

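On 6 of the 18 probes, from 4 genes, the genotype difference in myeloid cells differed from that in progenitors. The limma test was of the difference itself, and 9.38% of all probes passed it. Cdkn1a differed by 1.76 on the log2 scale, with all 3 Rheb1-/- myeloid cell arrays above all 3 wild-type ones and overlapping genotypes in progenitors. The kinase gene Cdk6 differed by 0.98, 0.95 and 1.19 on its 3 probes, and Ccne1 by 0.63 on probe 1, with the Rheb1-/- myeloid cell arrays above the wild-type ones in each case. Cdkn1b differed in the other direction, by -0.51 on probe 3. Ccne1 probe 2 (0.65) and Cdkn1b probes 1 (-0.22) and 2 (-0.28) did not pass. Cdk6 probe 1 and Cdkn1a passed under each of the 21 alternatives, and the other 4 probes did not. The 3 wild-type and the 3 Rheb1-/- myeloid cell arrays lay on separate slides, so slide and genotype cannot be told apart in these values.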

How the results depend on the processing

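Of the probes called between genotypes in progenitors, 26 became 13 with 1 probe per gene, 11 without a filter, 4 with slide as a fixed block, 0 in a fit of the 6 progenitor arrays, 0 within slide 3 and 41 with trend and robust fitting, and 6 to 102 when single arrays were left out. The calls on the difference between cell types of the genotype effect went from 2546 to 1014 without a filter and to 1131 to 2871 with single arrays left out. For the 18 probes described they went from 6 to 2 without a filter and to 2 to 6 with arrays left out, 2 without Rheb1-/- progenitor array 1 or Rheb1-/- myeloid cell array 3 and 3 without wild-type myeloid cell array 2. With 1 probe per gene, which tests fewer probes, the cell-type calls went from 20844 to 13766 in wild type and from 18476 to 12138 in Rheb1-/-. Probes at least 2-fold apart in stem cells went from 2704 to 1329 under normexp.

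Leaving out arrays gave 8 to 12 of the 18 probes in myeloid cells (11 in the full fit), 14 to 17 between cell types in wild type and 17 in Rheb1-/-. Signs turned only for differences of the 18 probes that had not passed. In progenitors Cdkn1b probe 1 went from -0.03 to 0.023 under normexp, Cdkn1b probe 3 from 0.08 to -0.022 with slide fixed or within slide 3, and Ccne1 probe 1 to 0.0020 with slide as a random block. In myeloid cells Cdkn2d went to -0.0038 with quantile normalization and -0.0035 with the deposited values. With single arrays left out the progenitor differences of Ccnd2 probe 1 ran from -0.020 to 0.065, of Cdkn1a from -0.034 to 0.16, of Cdkn1b probe 1 from -0.10 to 0.061, of Cdkn2d from -0.22 to 0.15 and of Ccne1 probe 1 from -0.039 to 0.041. In myeloid cells those of Ccnd3 ran from -0.18 to 0.066 and of Cdkn2d from -0.10 to 0.12, and the difference between cell types for Cdkn2d from -0.14 to 0.22. The causes were not tested.

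Same-numbered replicates of different groups correlated in their deviations at -0.157 to 0.132, over 0.1 in 2 of 18 pairs, so the numbers were not taken to pair the samples. With a replicate block 0, 11, 4, 17 and 17 of the 18 probes were called in progenitors, in myeloid cells, in the difference between them, and between cell types in wild type and in Rheb1-/-, where the fit without it gave 0, 11, 6, 16 and 17. No value within a slide exists for comparisons with wild-type myeloid cells. A single-comparison fit of the difference between cell types, and a count over the 18 probes with 1 probe per gene, were not run. Having 3 arrays per group limits what can be called.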
